A study of Mus musculus with 8 samples.

Results

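The clustered protocadherin genes were examined in RNA-seq of embryonic mouse cortex, as every gene symbol of the α (Pcdha), β (Pcdhb) and γ (Pcdhg) clusters in the deposited counts. These are 59 of 23284 symbols, 15 of the α cluster, 22 of the β cluster and 22 of the γ cluster. The libraries came from dorsal cortex of C57BL/6 embryos at E15.5, with the meninges and ganglionic eminences dissected away. The study sequenced 4 wild type (WT, ErbB4+/+) and 4 ErbB4 KO (ErbB4-/-) cortices to find transcripts that depend on the receptor tyrosine kinase ErbB4. ErbB4-/- embryos of this line live past mid-gestation because an α-MHC promoter drives an ErbB4 transgene in the heart muscle. Both lines were kept as separate homozygous colonies, and embryos were bred within each. WT and KO embryos thus had different dams, so genotype cannot be told apart from colony, dam or litter. The labels do not say whether embryos of a group shared a litter, so p-values measure the spread between these samples.

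Clustered protocadherins are cadherin-like adhesion proteins of neurons that bind the same isoform on a facing membrane. Each neuron switches on its own small set of isoforms through chance choice among many promoters, with CTCF and cohesin looping a chosen promoter to a distant enhancer, and the resulting surface code lets dendrites and axons of one cell recognise and avoid each other. An α or γ isoform is made from its own first exon, which encodes the extracellular cadherin repeats and the membrane span, joined to constant exons that all isoforms of that cluster share and that encode a common cytoplasmic end. β genes consist of a single coding exon and have no constant part. The last members of the α and γ clusters, called C-type (Pcdhac1, Pcdhac2, Pcdhgc3, Pcdhgc4 and Pcdhgc5), are used more uniformly across neurons than the others.

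The 3 clusters lie in tandem on the plus strand of chromosome 18 (NCBIM37, the build also called mm9). The annotation of that build places the α exons in chr18:37089939-37347311, the β genes from the start of Pcdhb1 at 37424652 to the end of Pcdhb22 at 37681073, and the γ exons in chr18:37833989-38001527. It lists 9 first exons of 2382 to 2562 nt under the α record and 9 of 2565 to 2961 nt under the γ record, and does not give them isoform names. Apart from Pcdha3 (chr18:37105801-37108685), the α and γ isoforms had no separate record of their own. Levels per kb are therefore compared between genes only within the β cluster, for its 22 genes. Rankings by CPM elsewhere in this text are not corrected for length. Between 88% and 100% of the 50-nt stretches of the β genes occur once in the genome, so reads of this length separate most of their sequence. How reads in the shared α and γ exons were assigned to isoforms is not given in the sources used here and was not tested.

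The libraries held 28205703 to 48871480 counted reads. Erbb4 itself was at 8.99, 19.9, 25.3 and 19.2 CPM (counts scaled to a common library size after TMM normalization) in WT replicates 1 to 4 and at 20.9, 24.6, 20.7 and 23.5 CPM in the ErbB4 KO libraries. The counts cover the whole gene and were not lower in the libraries labelled KO, so each direction below rests on the label, and those libraries are called KO-labelled. WT replicate 1 stood apart, with levels that fell as gene length grew (Spearman's rho = −0.58 over genes, against 0.04 to 0.22 in the other libraries). Xist was at 983 to 1687 CPM in WT replicates 1 to 3 and at 2.70 to 3.82 CPM in WT replicate 4 and the KO-labelled libraries, and Ddx3y, a Y-linked gene, was at 0.26 to 0.50 CPM and 76.4 to 80.9 CPM in the same sets. Genotype and this sex-linked pattern thus share all but 1 library and can scarcely be told apart. Markers of dorsal cortex were high (Neurod2 at 594 CPM and Tbr1 at 427 CPM in WT), the meningeal genes Lum and Dcn were at 0.07 and 2.97 CPM, and the interneuron marker Gad1 was at 83.0 CPM.

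Clustered protocadherin reads amounted to 468 to 695 CPM in each library, with most of them from the γ cluster. Summed γ levels were 316, 412, 408 and 464 CPM in WT replicates 1 to 4 and 489, 477, 459 and 445 CPM in KO-labelled replicates 1 to 4. Only WT replicate 4 lay inside the KO-labelled range, and the means were 400 ± 61.3 and 468 ± 19.3 CPM (SD, n = 4 each). Without WT replicate 1, the log2 ratio of these means was 0.13 in place of 0.23. Summed α levels were 50.9, 72.8, 59.9 and 77.7 CPM in WT and 81.4, 78.4, 71.8 and 71.8 CPM in KO-labelled libraries, again with WT replicate 1 lowest, and the log2 ratio of the means fell from 0.22 to 0.11 without it. Summed β levels were 101, 162, 134 and 109 CPM in WT and 111, 139, 117 and 122 CPM in KO-labelled libraries. The β sums of the genotypes overlapped throughout, and WT alone held both the highest and the lowest. In this tissue, fewer cells of a type and less RNA per cell cannot be told apart.

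**Figure D1:**
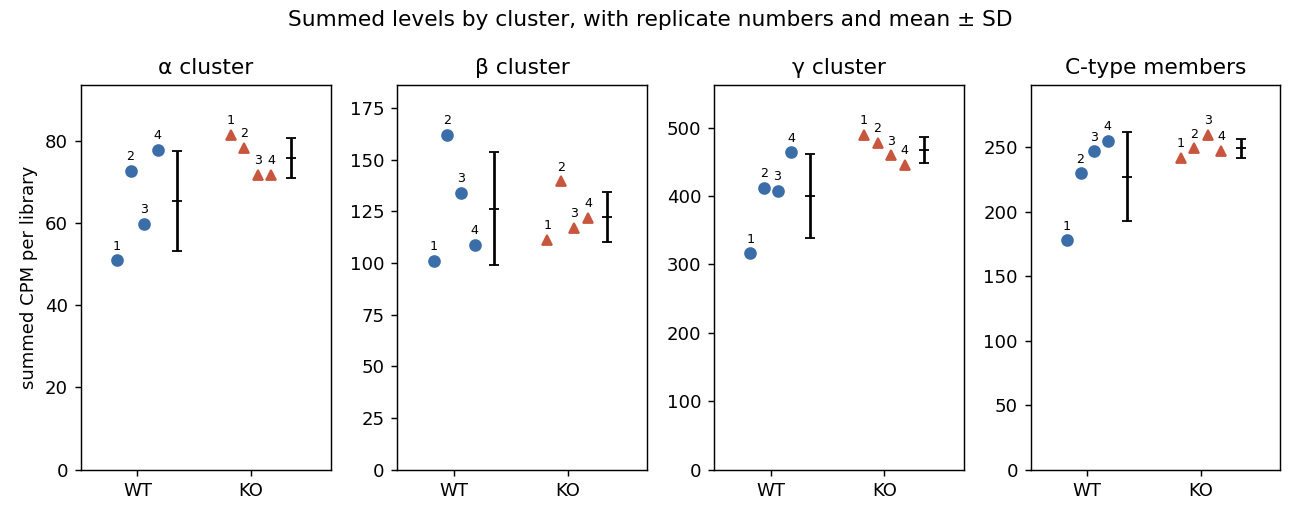
Summed CPM of the α, β, γ and C-type members in each library (vertical axis from 0), with circles for WT, triangles for KO-labelled libraries, replicate numbers above the points and bars for mean ± SD (n = 4). WT replicate 1 is lowest in all 4 panels, and the genotypes overlap in each.

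The C-type members gave 35.4% to 41.0% of all clustered protocadherin reads. Pcdhgc3, a promoter of dendrite branching that binds Axin1, was at 143, 181, 199 and 199 CPM in WT replicates 1 to 4 and at 182, 192, 206 and 194 CPM in KO-labelled replicates 1 to 4. It alone supplied 43.0% to 48.7% of γ reads in WT and 37.2% to 44.7% in KO-labelled libraries, and its log2 difference was 0.10 ± 0.09 (SE). Pcdhgc4, the isoform that neurons need to survive, was at 18.4, 25.4, 25.4 and 26.2 CPM in WT and at 31.4, 28.2, 28.5 and 26.1 CPM in KO-labelled libraries, where WT replicate 4 overlapped the lowest KO-labelled value. Pcdhgc5, which binds GABA-A receptors at synapses of older neurons, was at 2.03, 3.02, 3.15 and 2.91 CPM against 3.57, 3.56, 3.33 and 3.27 CPM. All 4 KO-labelled libraries lay above all 4 WT libraries for Pcdhgc5, by little over the highest WT value.

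Pcdhac2, which serotonergic axons use to spread apart, had the most reads of the α members, with no correction for length, at 13.2, 17.0, 16.5 and 23.4 CPM in WT and 21.6, 22.3, 19.7 and 20.6 CPM in KO-labelled libraries. It gave 23.3% to 30.1% of α reads. Pcdhac1 was at 0.999, 2.89, 2.95 and 2.68 CPM in WT and 3.13, 2.76, 2.23 and 2.73 CPM in KO-labelled libraries. The genotypes overlapped for both α C-type members, and the low Pcdhac1 value of WT replicate 1 had no counterpart in any other library. All 5 C-type members had a positive log2 difference, from 0.10 to 0.30, and 1 of them, Pcdhgc4, had an unadjusted p under 0.05. These counts are read against 7237 of 14696 tested genes with a positive difference and 5.53% under that p.

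**Figure D2:**
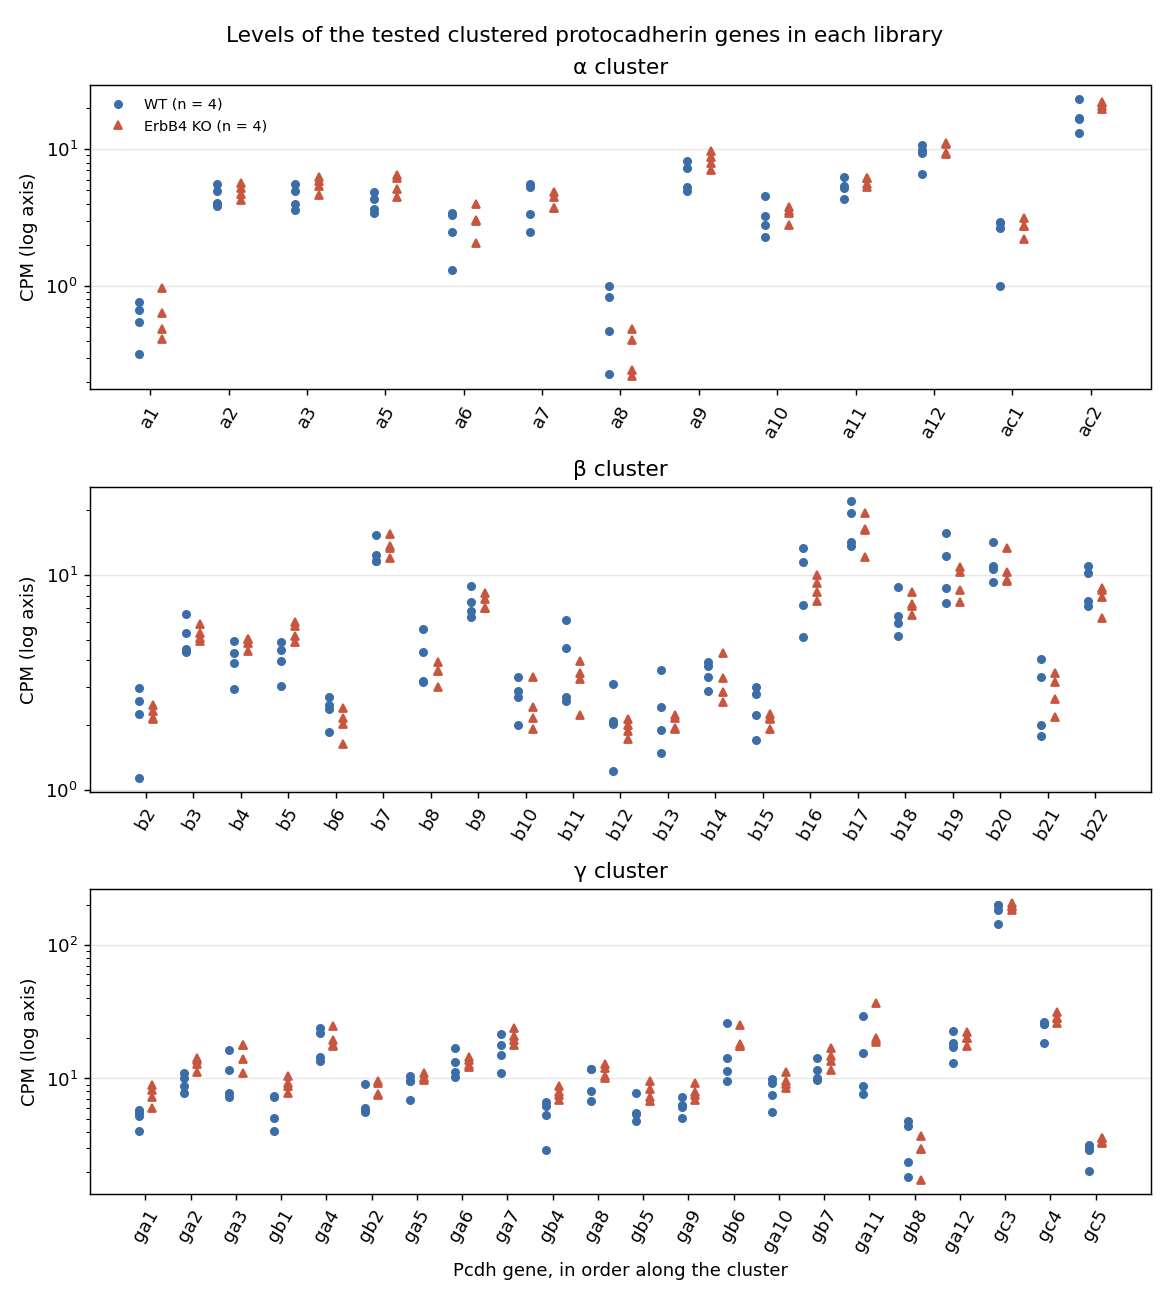
CPM on a log axis for the 56 tested members in the order they lie along each cluster, with 4 circles for WT and 4 triangles for KO-labelled libraries per gene. Pcdhgc3 has the highest CPM of the γ members (not corrected for length), and the α members Pcdha1 and Pcdha8 stay under 1 CPM in all 8 libraries.

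Among the other α members, Pcdha12 was at 6.63, 9.37, 10.8 and 9.92 CPM in WT and at 11.04, 9.42, 10.8 and 9.28 CPM in KO-labelled libraries. WT replicates 2 to 4 lay inside the range of the KO-labelled libraries. The remaining α members that could be tested had means from 0.486 CPM (Pcdha8) to 7.42 CPM (Pcdha9). Pcdha4 had 0 to 5 reads in each library, and the symbol Pcdha4-g had 0 reads in all 8. A count of 0 allows up to 0.0609 to 0.107 CPM here (3 reads of each library's total, covering counting error only). In RefSeq (GRCm38) a record with the synonym Pcdha4-g spans the whole of Pcdha4, and reads in overlapping records can be dropped in counting. Whether the annotation used for the counts had this overlap was not tested, so these low counts cannot be read as low expression.

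Across the β cluster, levels per kb of exon could be set side by side. Pcdhb17 (chr18:37644675-37647943, 3269 nt of exon) led with 5.09 ± 1.03 CPM per kb (SD, n = 8), followed by Pcdhb7 at 3.75 ± 0.45, the record Pcdhb20, which this annotation calls a pseudogene, at 3.08 ± 0.52, and Pcdhb22 at 2.74 ± 0.51. Ranges over the 8 libraries overlapped between each pair of neighbours among these 4, including Pcdhb17 (3.71 to 6.73 CPM per kb) and Pcdhb7 (3.30 to 4.41 CPM per kb). The other 17 tested β genes lay between 0.60 and 2.43 CPM per kb. Pcdhb1, the first gene of the cluster (chr18:37424652-37427108), had no more than 1 read in any library, although all of its 50-nt stretches occur once in the genome. The highest 4 genes kept their ranks when levels were divided by unique sequence alone.

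**Figure D3:**
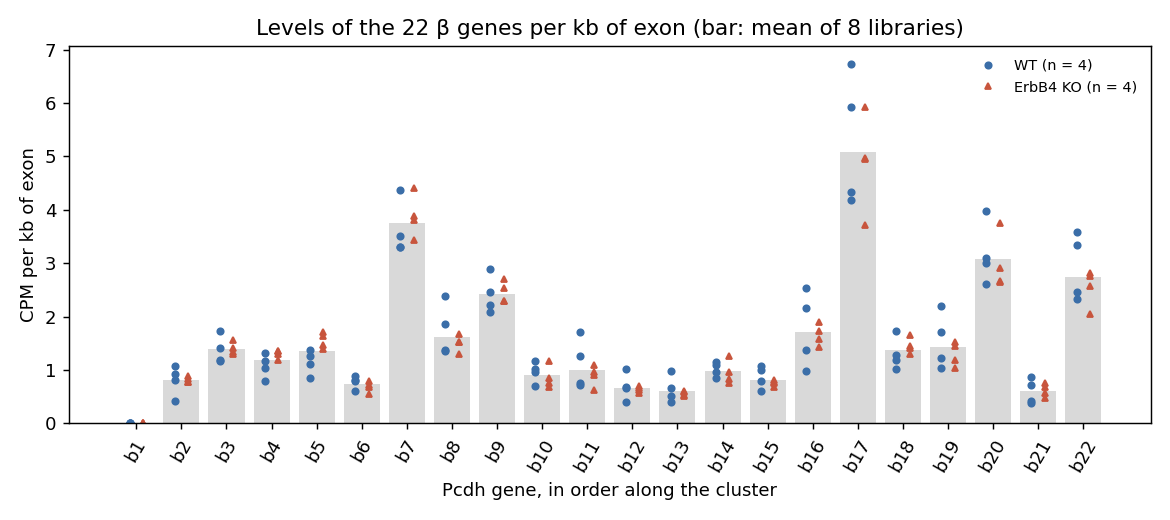
CPM per kb of exon for the 22 β genes in order along the cluster, with bars (from 0) for the mean of 8 libraries, circles for WT and triangles for KO-labelled libraries. Pcdhb17, Pcdhb7 and Pcdhb20 are highest, and Pcdhb1 is at the baseline.

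Within genotypes, Pcdhb17 was at 14.2, 22.01, 19.3 and 13.7 CPM in WT and at 12.1, 19.4, 16.3 and 16.2 CPM in KO-labelled libraries. Pcdhb7 was at 11.6, 15.3, 11.6 and 12.3 CPM against 15.45, 13.6, 12.0 and 13.4 CPM, and Pcdhb20 at 10.7, 14.1, 10.97 and 9.26 CPM against 9.38, 13.3, 10.3 and 9.47 CPM. In none of the 3 did the genotypes separate.

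The comparison of KO-labelled with WT libraries asked whether any of these genes depends on ErbB4. It was made with edgeR's quasi-likelihood test over the 14696 genes that passed a filter on low counts, with Benjamini-Hochberg adjustment over all of them and a threshold of 0.05. Of the 59 members, 56 passed this filter, and Pcdha4, Pcdha4-g and Pcdhb1 had too few reads for it. No member passed, against 4 genes in all (0.0272%). The smallest adjusted p of edgeR among members was 0.736, for Pcdhga2. At an unadjusted p under 0.05 there were 11 members, with 2 of 13 in the α cluster, 1 of 21 in the β cluster and 8 of 22 in the γ cluster, where 5.53% of all tested genes reached that level. All 11 were higher in KO-labelled libraries, where the background is 3% in that direction and 2.52% in the other. DESeq2 and limma-voom gave 12 and 13 members at that level and none past the adjusted threshold.

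In 6 members the genotypes did not overlap, against 3.34% of tested genes. The KO-labelled libraries were the higher ones in all 6, where 1.86% of tested genes had that order and 1.48% the opposite order. Full separation of 4 from 4 libraries always gives p = 0.0286 in the exact two-sided permutation test, the smallest it allows, so that test adds nothing to this count. These 6 were Pcdhb5, Pcdhga1, Pcdhga2, Pcdhgb1, Pcdhgb4 and Pcdhgc5.

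In the γ cluster, 21 of 22 members had a positive log2 difference, with a median of 0.31. Over all tested genes, 7237 of 14696 were positive and the median was −0.002. The α cluster had 12 of 13 positive and a median of 0.14, which fell to 0.02 without WT replicate 1 and to 0.04 with log2 CPM of Xist as a covariate. The β cluster had 8 of 21 positive and a median of −0.09, whose sign reversed to 0.09 without WT replicate 2 and to 0.22 with that covariate. The γ median with the covariate was 0.13. Over all 56 members the log2 differences ran from −0.86 (Pcdha8, a gene with 7 to 28 reads per library) to 0.63 (Pcdhga11).

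**Figure D4:**
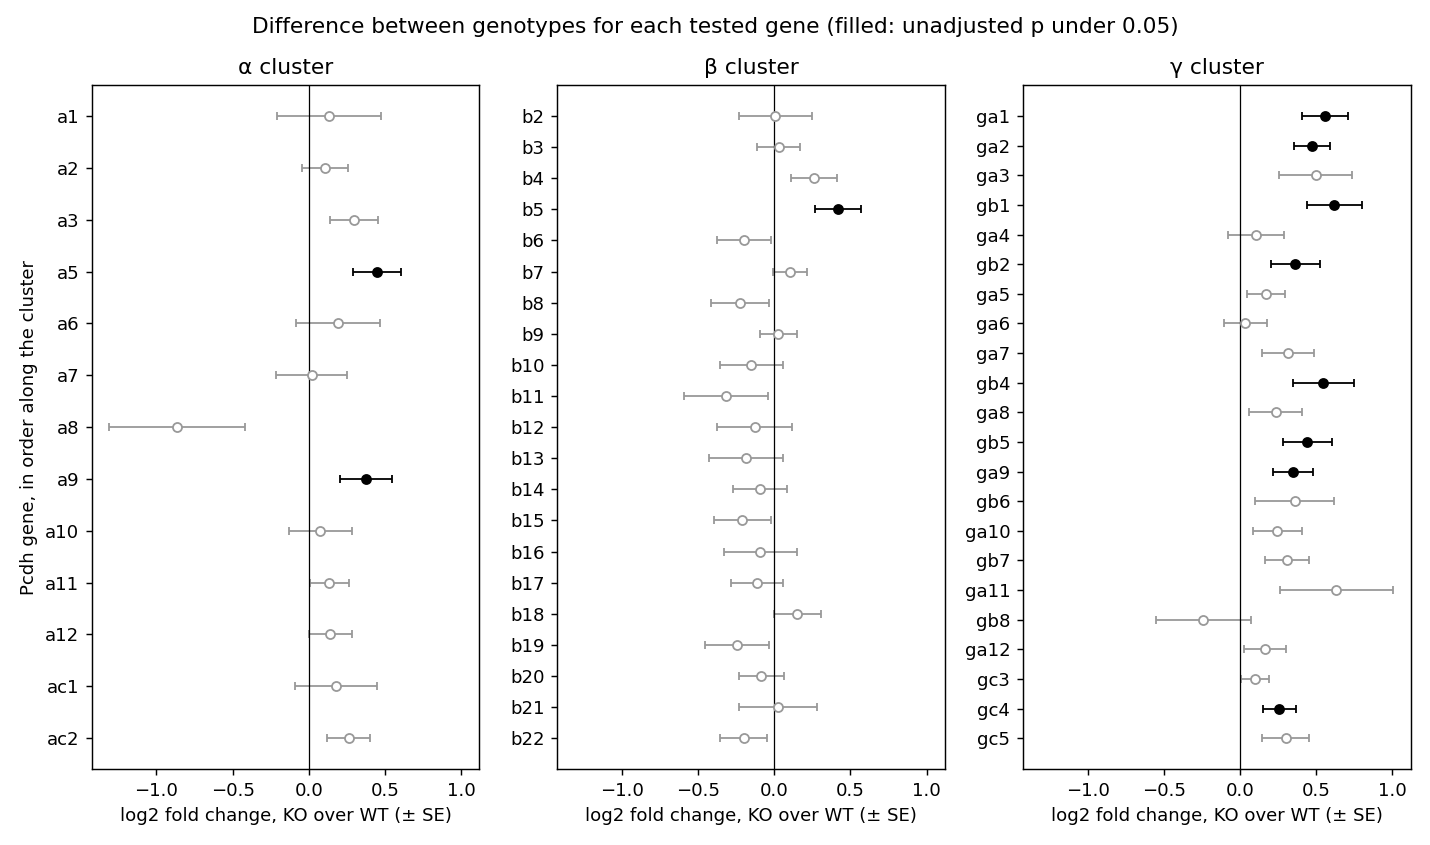
log2 fold change of KO-labelled over WT libraries with its SE for the 56 tested members, in order along each cluster, where filled points have an unadjusted p under 0.05. The γ points lie right of 0 except for Pcdhgb8, and the β points lie on both sides.

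Relative to their error, the differences were largest for Pcdhga2, Pcdhga1 and Pcdhgb1, which are 3 of the 4 members at the start of the γ cluster. Pcdhga2 was at 7.85, 10.97, 8.73 and 10 CPM in WT replicates 1 to 4 and at 13.8, 14.3, 12.9 and 11.3 CPM in KO-labelled replicates 1 to 4. Its highest WT value stopped just short of its lowest KO-labelled value (log2 difference 0.48 ± 0.12 SE, edgeR adjusted p = 0.736). Pcdhga1, the first γ isoform, was at 4.07, 5.20, 5.84 and 5.50 CPM in WT and at 8.20, 8.93, 7.22 and 6.07 CPM in KO-labelled libraries. The separation here was again narrow between WT replicate 3 and KO-labelled replicate 4 (log2 difference 0.56 ± 0.15, edgeR adjusted p = 0.810). Pcdhgb1, the first of the B-type γ isoforms, was at 5.03, 7.38, 4.07 and 7.27 CPM against 10.5, 8.82, 7.81 and 9.28 CPM. WT replicates 2 and 4 came within a small margin of KO-labelled replicate 3 (log2 difference 0.62 ± 0.18, edgeR adjusted p = 0.810). These 3 genes had an unadjusted p under 0.05 whichever library was left out. Pcdhga3, which lies between them, was at 7.78, 11.5, 7.33 and 16.4 CPM in WT and at 17.7, 17.95, 14.0 and 11.02 CPM in KO-labelled libraries. Its genotypes overlapped, and its log2 difference of 0.50 had an SE of 0.24.

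Further along, Pcdhgb4 was at 2.93, 6.26, 6.67 and 5.30 CPM in WT and at 7.88, 8.76, 7.53 and 6.96 CPM in KO-labelled libraries, with WT replicate 1 far below the rest of WT. Pcdhgb5 was at 4.82, 5.55, 5.40 and 7.78 CPM against 9.50, 8.42, 6.79 and 7.31 CPM. Pcdhga9 was at 5.03, 7.22, 6.15 and 6.38 CPM against 7.88, 9.22, 7.50 and 6.96 CPM. Pcdhgb4 separated the genotypes, while WT replicate 4 of Pcdhgb5 and WT replicate 2 of Pcdhga9 fell inside the KO-labelled range. Pcdhgb2 was at 5.64, 5.78, 6.02 and 9.03 CPM in WT and at 9.64, 9.19, 7.71 and 7.53 CPM in KO-labelled libraries, so that WT replicates 1 to 3 were low and WT replicate 4 sat with the KO-labelled libraries. The log2 differences of these 4 genes and of Pcdhgc4 ran from 0.26 to 0.55, with adjusted p of 0.810 by edgeR. Without WT replicate 1, that of Pcdhgc4 fell from 0.26 to 0.16 and that of Pcdhgb4 from 0.55 to 0.36. Without WT replicate 4, that of Pcdhgb2 rose from 0.36 to 0.55. With log2 CPM of Xist as a covariate, that of Pcdhgb2 turned to −0.086 and that of Pcdhgb5 fell to 0.04.

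Pcdhga11 varied most among the well-covered γ members, at 15.48, 8.82, 7.66 and 29.3 CPM in WT and at 36.4, 19.5, 18.8 and 20.2 CPM in KO-labelled libraries. WT replicates 2 and 3 were lowest and KO-labelled replicate 1 was highest, a range of 4.75-fold over the 8 libraries. Its log2 difference of 0.63 had an SE of 0.37. Pcdhgb8, the γ member with the lowest mean CPM and the only one with a negative difference (−0.24 ± 0.31), was at 2.35, 4.81, 4.38 and 1.82 CPM in WT and at 1.75, 3.73, 2.97 and 2.99 CPM in KO-labelled libraries.

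In the α cluster, Pcdha5 was at 3.64, 4.30, 3.44 and 4.90 CPM in WT and at 6.44, 6.12, 5.15 and 4.48 CPM in KO-labelled libraries. KO-labelled replicate 4 lay below WT replicate 4, and the log2 difference was 0.45 ± 0.16 (edgeR adjusted p = 0.810). Pcdha9 was at 5.28, 7.28, 4.95 and 8.26 CPM against 7.999, 9.77, 7.02 and 8.77 CPM, with WT replicates 2 and 4 inside the KO-labelled range (log2 difference 0.38 ± 0.17, edgeR adjusted p = 0.810). In the β cluster, Pcdhb5 (chr18:37480035-37483567) was at 3.03, 4.88, 3.96 and 4.47 CPM in WT and at 5.22, 6.03, 4.89 and 5.78 CPM in KO-labelled libraries. Its genotypes were parted by WT replicate 2 and KO-labelled replicate 3, which were nearly equal (log2 difference 0.42 ± 0.15, edgeR adjusted p = 0.810).

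The 11 members fell to 5 when KO-labelled replicate 2 was left out and to 6 without KO-labelled replicate 1, where the share of all tested genes under 0.05 fell from 5.53% to 2.9% and 3.63%. The count of all members under 0.05 rose to 20 without WT replicate 4 (19 higher and 1 lower in KO-labelled libraries), where that share was 4.95%. Without WT replicate 1, 9 of the 11 remained under 0.05, with 5.93% of all tested genes, and the γ median was 0.21. With log2 CPM of Xist as a covariate, none of the 11 did, and the share of all tested genes under 0.05 was 1.68%. The log2 differences of Pcdhga1, Pcdhga2 and Pcdhgb4 were then 0.49, 0.40 and 0.61, while that of Pcdhgb1 fell to 0.33 and that of Pcdhgc4 to 0.14. Those of Pcdha5, Pcdha9 and Pcdhgb5 fell to 0.17, 0.04 and 0.04. The libraries low in Xist include 1 of WT, so no test within them could be made. Over the 56 tested members, that library (WT replicate 4) lay below all KO-labelled libraries for 20, inside their range for 30 and above all of them for 6, where 20.3%, 57.7% and 22% of all tested genes did so. By cluster, WT replicate 4 lay below all of them for 1 of 13 α, 9 of 21 β and 10 of 22 γ members. It lay above all of them for 2 α, 1 β and 3 γ members.

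The spread between libraries of 1 genotype was set beside that of other genes. For the 55 tested members other than Pcdhgc3, the median SD of log2 CPM within a genotype was 0.26, and for the 6519 other tested genes in the same range of levels it was 0.20. The median log2 CPM of these sets was 2.77 and 2.72. The median SD was 0.34 among WT and 0.18 among KO-labelled libraries for these members, and 0.21 and 0.16 for the other genes, so WT spread was the larger in both sets. WT replicate 1 was the lowest of the 8 libraries for 16 of 22 γ members and 10 of 21 β members, against 29.5% of tested genes. WT replicate 2 was the highest for 16 of 21 β members and for 1 of 22 γ members, against 11.6% of tested genes. KO-labelled replicates 1 and 2 were the highest for 9 and 8 of the γ members, against 8.76% and 10.9%.

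**Figure D5:**
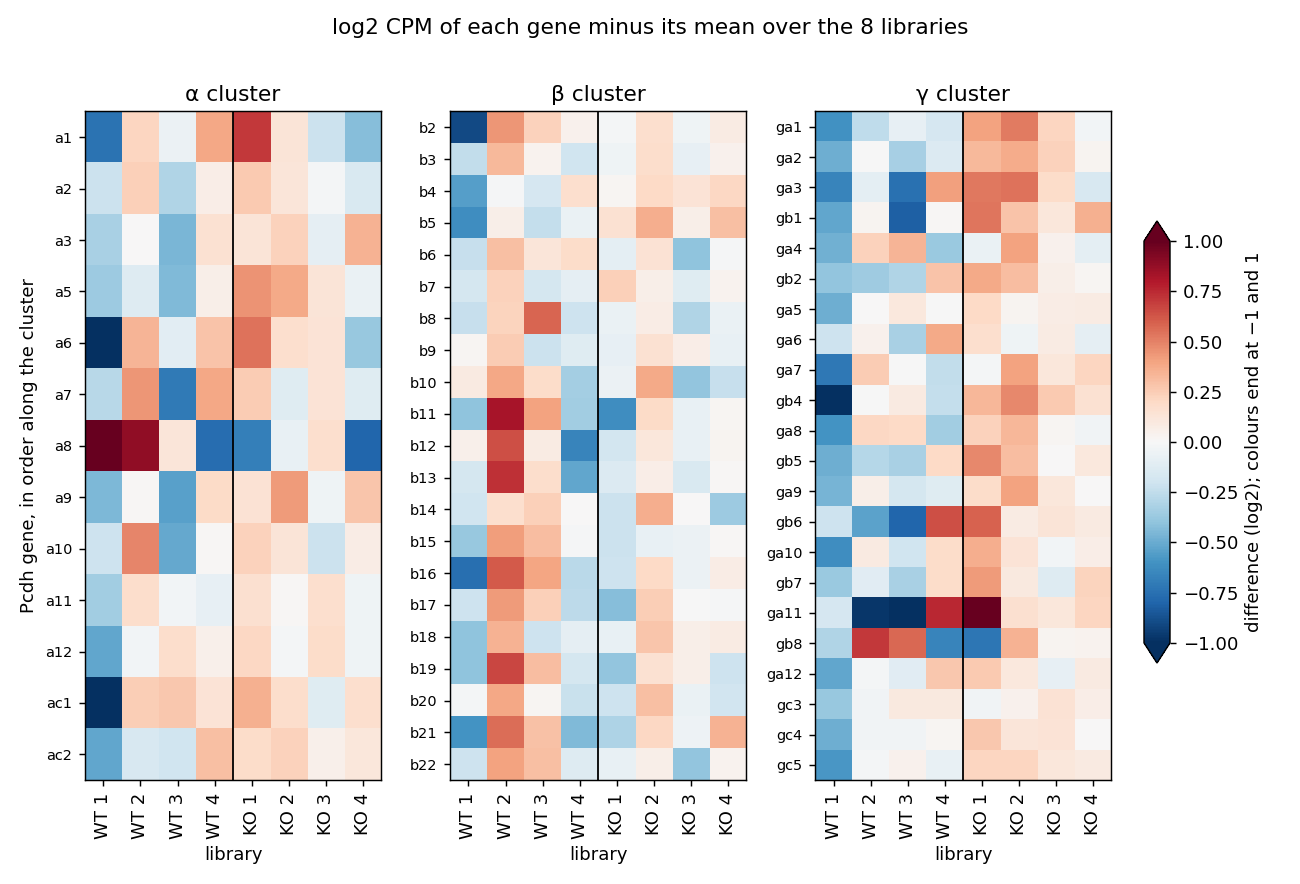
Difference of log2 CPM of each tested member from its own mean over the 8 libraries, in order along each cluster, with libraries in columns and colours ending at −1 and 1. WT replicate 1 is low for most γ members, WT replicate 2 is high for most β members, and Pcdhga11 and Pcdhgb8 run opposite to each other in WT replicates 2 to 4.

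Other genes of the pathway were read from the same fit, in which 7237 of 14696 tested genes had a positive difference. Of 18 regulators of the clusters, 17 were in the files and tested, and none passed the threshold or had an unadjusted p under 0.05. Their median log2 difference was −0.01, with 8 positive. Ctcf, which binds the promoters, was at 212 ± 12.1 CPM in WT and 214 ± 6.96 CPM in KO-labelled libraries. Rad21, a cohesin subunit, was at 407 ± 31.3 and 396 ± 14.8 CPM, and Smc1a, another, at 259 ± 18.3 and 246 ± 13.2 CPM. Trim28, a corepressor that silences chromatin, was at 616 ± 42.4 and 574 ± 22.5 CPM (SD, n = 4 each). None of these 4 genes had separate genotypes.

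Among proteins that bind clustered protocadherins or act below them, 24 of 26 were tested and none passed, with 17 positive and a median of 0.05. In this list 3 genes had an unadjusted p under 0.05 and 3 had separate genotypes, where the shares over all tested genes were 5.53% and 3.34%. Ptk2b, a focal adhesion kinase relative that the α and γ cytoplasmic ends inhibit, had a log2 difference of 0.47 ± 0.19 (edgeR adjusted p = 0.810) at 4.27 ± 1.06 and 5.88 ± 1.20 CPM. Nlgn1, a postsynaptic adhesion protein that γ isoforms restrain, was at 43.0, 56.5, 52.3 and 55.3 CPM in WT and at 59.2, 68.2, 62.5 and 59.8 CPM in KO-labelled libraries. The genotypes did not overlap for Nlgn1 (0.27 ± 0.09, edgeR adjusted p = 0.810). Cntnap2, an adhesion protein of the neurexin family, was lower in all KO-labelled libraries (134 ± 6.35 and 121 ± 7.46 CPM, −0.15 ± 0.06, edgeR adjusted p = 0.810). Abi2, a subunit of the actin-regulating WAVE complex, was higher in all of them, by 0.12 ± 0.05. The most abundant of this list were Marcks, a substrate of protein kinase C, at 1221 ± 107 and 1176 ± 15.7 CPM, Rac1 at 329 ± 25.4 and 327 ± 3.55 CPM, Nckap1 at 307 ± 25.2 and 332 ± 7.37 CPM and Cyfip2 at 306 ± 28.2 and 320 ± 8.67 CPM.

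The non-clustered protocadherins are related adhesion genes that lie outside the clusters. All 12 were tested, none passed, 10 were positive (7237 of 14696 over all tested genes), and the median log2 difference was 0.13. WT replicate 1 was the lowest library for most of them, though not for Pcdh8 or Pcdh12. In that library Pcdh17 was at 29.2 CPM, against 53.1 to 60.25 CPM elsewhere, and Pcdh11x at 8.20 CPM, against 17.3 to 21.5 CPM. Pcdh9 was at 48.2, 55.4, 52.4 and 52.5 CPM in WT and at 55.8, 60.6, 60.2 and 54.5 CPM in KO-labelled libraries. It was the member of this list with an unadjusted p under 0.05 (0.15 ± 0.06, edgeR adjusted p = 0.810), against 5.53% of all tested genes. The most abundant were Pcdh10 at 151 ± 17.5 and 149 ± 4.50 CPM, Pcdh8 at 80.1 ± 7.93 and 87.1 ± 6.37 CPM, Pcdh19 at 76.7 ± 12.7 and 77.6 ± 6.73 CPM and Pcdh9 itself.

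None of the cell type markers read here passed the threshold. All 6 markers of cortical progenitors had negative log2 differences, with a median of −0.14, where 7459 of 14696 tested genes were negative. Their summed levels overlapped, at 637 to 746 CPM in WT and 585 to 698 CPM in KO-labelled libraries. Pax6 had the lowest p of the 6 (−0.27 ± 0.08, edgeR adjusted p = 0.810). Of the 6 markers of dorsal excitatory neurons, 2 had positive log2 differences, and the median was −0.02. The 7 interneuron markers summed to 462 to 629 CPM in WT and 454 to 639 CPM in KO-labelled libraries. The 5 meningeal markers summed to 10.4 to 12.0 CPM and 10.2 to 18.2 CPM. Hbb-y, an embryonic globin, was lower on average in KO-labelled libraries (26.6 ± 9.14 and 8.20 ± 6.89 CPM), with Hba-a1 and Hba-a2 at 0 in all libraries. Whether reads of Hba-a1 and Hba-a2 were dropped in counting was not tested, so their zeros cannot be read as absence. Ttr, a choroid plexus gene, was at 572 CPM in KO-labelled replicate 3 and at 0.57 to 8.76 CPM elsewhere. Their part in the protocadherin differences was not tested.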

How the data were processed

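RNA from 4 WT and 4 ErbB4 KO dorsal cortices (E15.5, RIN above 8) was made into non-stranded polyA libraries and sequenced as single-end reads of 50 nt. Alignment by the authors used HISAT and mm9. Their deposited files hold HTSeq-count output, whole-number counts per gene symbol without normalization. Versions, annotation and overlap mode are not given in the sources used here. Without strand, reads of antisense or overlapping genes cannot be told apart. The authors' deposited DESeq2 table holds their own fold changes and p-values and was not used.

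Groups came from the sample titles. The genotypes were compared on the counts by edgeR 4.0.16 under R 4.3.3 (TMM scaling, filterByExpr with a minimum count of 10 and total of 15, quasi-likelihood test, Benjamini-Hochberg over 14696 genes, no covariate). All 8 libraries entered this fit. Exact permutation tests covered all 70 assignments. log2 CPM had a prior count of 2. Depth of 28205703 to 48871480 reads leaves genes of few reads with wide errors. Alternatives were DESeq2 1.42.0, limma-voom 3.58.1, RLE scaling, the low-count filter left off or set at a mean of 50 counts, a replicate block, log2 CPM of Xist as covariate, removal of each library's length trend, a threshold of 0.1 and each library left out. For the length trend, α and γ members took the median first-exon length of their record (2394 and 2595 nt). Exon lengths and positions came from GENCODE of NCBIM37, and gene order within clusters from RefSeq (GRCm38). No pair of libraries within a genotype was a duplicate (chi-square per gene of 6.24 or more). Steps were tested on simulated data, and plots were made in Python 3.11.15 using matplotlib 3.10.9.

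The members and lists were chosen with earlier results of these data known. Per-library values are given for the C-type members, the 3 members with the most reads in each cluster or per kb, those with an unadjusted p under 0.05 or with separate genotypes, and the lowest of each cluster, and for the pathway lists the genes under 0.05 and the 4 most abundant. Ctcf, Abi2 and the other genes outside this rule were named after their values were seen. Some genes of these lists are not reported here by name.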

Additional observations from a re-analysis of the deposited data

Results flagged for a closer look

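In 5 of 112 groups of 4 libraries (56 members in each genotype), 1 library lay far from the others by Dixon's test at the 95% level, which chance gives in about 1 of 20 groups. Pcdhac1 was at 0.999 CPM in WT replicate 1, with the other WT libraries at 2.68 to 2.95 CPM. Pcdhgc4 was at 18.4 CPM in the same library, with the others at 25.4 to 26.2 CPM. Pcdhgb2 was at 9.03 CPM in WT replicate 4, with the others at 5.64 to 6.02 CPM. Pcdhga11 was at 36.4 CPM in KO-labelled replicate 1, with the other KO-labelled libraries at 18.8 to 20.2 CPM. Pcdhgb6 was at 24.9 CPM in that same library, with the others at 17.5 to 18.1 CPM.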

How the results depend on the processing

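No member passed an adjusted p of 0.05 under any alternative or with any library left out (smallest adjusted p 0.0679, Pcdhga2 with DESeq2), and none of the pathway genes did. Members at an unadjusted p under 0.05 numbered 11 (5.53% of all tested genes), and 0 with Xist as a covariate (1.68%), 12 with DESeq2 (5.1%), 13 with limma-voom (5.72%), and 5 to 20 with 1 library left out (5 without KO replicate 2, 2.9%; 6 without KO replicate 1, 3.63%; 20 without WT replicate 4, 4.95%). Members with separate genotypes numbered 6 (3.34% of all tested genes), and 6 to 14 with 1 library left out (4.54% to 9.97%), the 14 without WT replicate 4 (5.83%). The log2 difference of Pcdhgb2 turned to −0.086 with Xist as a covariate, and the cause was not tested. With 1 library left out, the β median moved between −0.21 (without KO replicate 2) and 0.09 (without WT replicate 2), the γ median between 0.21 and 0.36, and the α median between 0.02 (without WT replicate 1) and 0.25. With Xist as a covariate the β, γ and α medians were 0.22, 0.13 and 0.04. With each library's length trend removed, these medians were −0.11, 0.33 and 0.16. In that fit 12 members had an unadjusted p under 0.05 by edgeR, with 7.06% of all tested genes. Calls over all genes numbered 4, and 23 with DESeq2, 2 with the length trend removed, 1 with RLE scaling, with Xist or with the replicate block, and 1 to 13 with 1 library left out (13 without WT replicate 4).

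Same-numbered libraries share only a number (correlations of their deviations from 0.02 to 0.13), and with the replicate block 15 members and 6.97% of all tested genes had an unadjusted p under 0.05. The low-count filter removed Pcdha4 and Pcdhb1. Without it, and with DESeq2, 58 members were tested.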

Other observations

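WT replicates 2 and 3 both lay above WT replicate 4 and all KO-labelled libraries for 8 of 21 β members (Pcdhb2, Pcdhb8, Pcdhb11, Pcdhb13, Pcdhb15, Pcdhb16, Pcdhb19 and Pcdhb22) and for the γ member Pcdhgb8, an order seen in 3.68% of tested genes. Pcdhb19 was at 7.42, 15.7, 12.2 and 8.69 CPM in WT and at 7.45, 10.9, 10.3 and 8.51 CPM in KO-labelled libraries, and Pcdhb16 at 5.14, 13.3, 11.4 and 7.21 CPM against 7.53, 9.996, 8.32 and 9.12 CPM. The opposite order held for 5 of 22 γ members (Pcdhga11, Pcdhgb2, Pcdhgb5, Pcdhgb6 and Pcdhgc4), 2 α members (Pcdha5 and Pcdhac2) and Pcdhb4, and in 4.44% of tested genes. Pcdhgb6 was at 14.3, 11.4, 9.51 and 25.8 CPM in WT and at 24.9, 17.5, 18.1 and 17.6 CPM in KO-labelled libraries. These 2 WT libraries have high Xist, as has WT replicate 1, which followed neither order throughout. The comparison was chosen after the values were seen and has no test.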
